A study of Mus musculus with 4 samples.

Results

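The genes described here encode the kinases of the MAP kinase cascades, measured in mouse dendritic cells. They were chosen by name: every probe set of the array annotated to a single gene whose symbol starts with Map2k, Map3k, Map4k, Mapk or Mapkapk and a number, leaving out the interacting proteins with the suffix ip. This gave 35 of 12393 genes named on the array, and 31 of them had a signal above 33.3 on at least 1 array and count as measured, among 9473 measured genes. The 31 comprised 3 MAP4K, 12 MAP3K, 6 MAP2K, 7 MAPK and 2 MAPKAPK genes, which are 30 kinase genes, and Map2k3os, an opposite strand transcript of the Map2k3 locus that shares the name but is no kinase. The name also takes in Map3k7cl, likewise not a kinase of the cascade, which was not measured.

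The cells were CD11c+ dendritic cells labelled IL10-/-, so every group lacked interleukin 10 by its label, and no group with the intact gene was used here. They were incubated for 6 h with SEA/LPS, with LPS, with SEA or in media alone, with 1 array for each of the 4 groups, all of 1 lot batch. LPS is bacterial lipopolysaccharide, the ligand of the receptor TLR4. The labels do not spell out SEA, and they give neither doses, sex, age, tissue of origin, nor the number of animals or cultures behind a sample. Each group had 1 sample, so nothing could be tested: the number of arrays limits the precision, and a gene counts as higher or lower only by the size of its difference, which must reach 2-fold, and its larger signal must exceed the floor of 33.3.

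A MAP kinase cascade is a chain of protein kinases in which each member phosphorylates the next: a MAP3K activates a MAP2K, which activates a MAP kinase, while MAP4Ks act above the MAP3Ks and MAPKAP kinases are substrates of the MAP kinases. The main branches end in the ERK, JNK and p38 kinases. In dendritic cells and macrophages, TLR4 feeds these branches through the MAP3K TAK1, encoded by Map3k7, and the ERK branch through TPL2, encoded by Map3k8, and the cascades control the transcription, mRNA stability and translation of inflammatory cytokines. These kinases are switched by phosphorylation, which the arrays do not measure: every value below is a transcript signal.

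The arrays had 2% trimmed means of 150.1 each, and 57.3% to 61.1% of their probe sets lay above the floor. Gapdh, whose 3' probe set was set against its 5' one as a measure of RNA integrity, gave a ratio of 3.12 with SEA/LPS, 2.42 with LPS, 2.69 with SEA and 2.21 in media, and the hybridisation controls were brighter than in media by 0.31, 0.55 and 0.09 log2 in the same 3 treated groups. All 10 dendritic cell markers listed were above the floor on at least 1 array, with a summed signal of 22350 with SEA/LPS, 31774 with LPS, 25159 with SEA and 23965 in media. Itgax, which encodes CD11c, read 2093 with SEA/LPS, 1851 with LPS, 2181 with SEA and 2732 in media, and other markers of the list differed in the opposite direction, such as Irf8 with 955 with SEA/LPS, 1911 with LPS, 531 with SEA and 489.6 in media. All 6 macrophage markers were above the floor too, with summed signals from 6806 to 7848. Of other cell types, 3 of 5 B cell, 2 of 6 T cell, 3 of 5 NK cell, 5 of 7 neutrophil, 2 of 3 erythroid and 3 of 5 mast cell or basophil markers passed the floor on at least 1 array. Their summed signals lay from 188 to 261, 96.1 to 164, 126 to 167, 358 to 490.4, 123 to 206 and 139 to 189.5. Il10 itself read 93.0 with SEA/LPS, 304 with LPS, 52.1 with SEA and 37.9 in media; all samples share the genotype, and the part of the gene that the probe set covers is unknown here, so this checks no label.

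**Figure D1:**
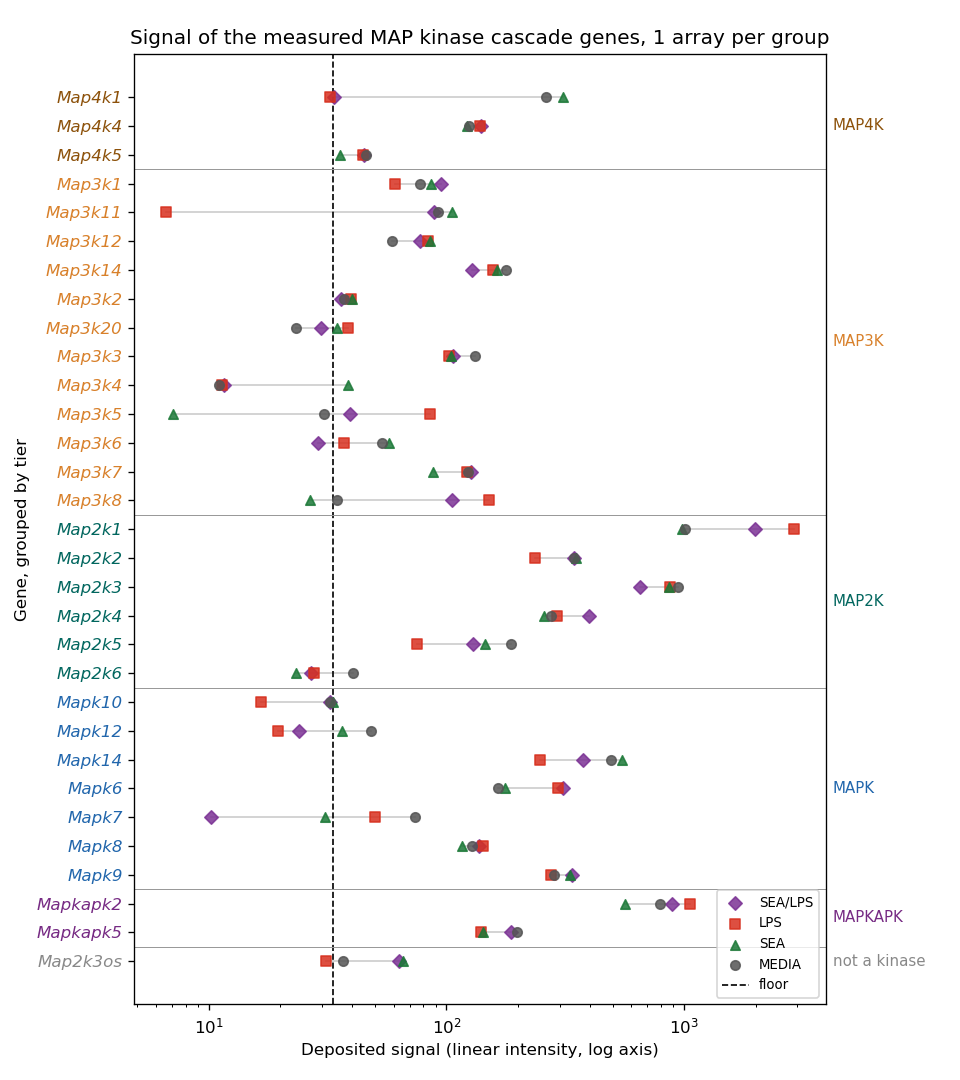
Deposited signal (log axis) of each of the 31 measured genes on the arrays of SEA/LPS, LPS, SEA and MEDIA (1 array per group, 1 point each); the dashed line is the floor of 33.3. Most rows are narrow, while Map4k1, Map3k8, Map2k1 and Map2k5 separate the LPS array from the MEDIA array, and the rows of Map3k11, Map3k5 and Mapk7 reach far below the floor, where values have no order.

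Most members varied by less than 2-fold, as did most measured genes. Over the 4 arrays, the median range from the lowest to the highest floored log2 signal was 0.54 for the 31 members and 0.68 for all measured genes. The range reached 2-fold in 8 of 31 members (25.8%), against 24.9% of all measured genes, a share close to the background. Of the 31, 19 were above the floor on all 4 arrays, and in these the range reached 2-fold in 3 genes (15.8%), against 25.6% of the genes with the same property. Altogether 24 of 31 members (77.4%) stayed within 2-fold in all 4 comparisons made below, against 78.9% of all measured genes. Members just above the threshold of 33.3 were Mapk10, Map3k4 and Map3k20, with highest signals of 33.4, 38.5 and 38.7. Just below it were Map3k7cl, Mapk11 and Map3k21, with highest signals of 32, 18.0 and 11.4. Mapk13, with 8.60, was the remaining gene not measured.

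LPS over media, the comparison that shows the response to the bacterial ligand, held 6 of the 12 calls made on members over the 4 comparisons. It held the most calls among all measured genes too, with 574 higher and 799 lower. SEA/LPS over media came next, with 430 and 668. Map3k8, which encodes TPL2, the MAP3K that activates MEK1 downstream of Toll-like receptors, was 4.37-fold higher with LPS than in media, and Map2k1, which encodes MEK1 itself, was 2.88-fold higher. Map4k1, which encodes HPK1, a kinase of haematopoietic cells known as a brake on lymphocyte and dendritic cell activation, was at least 7.91-fold lower. Map2k5, which encodes MEK5, the kinase above ERK5, was 2.48-fold lower. In all, 3 of 31 members were higher (9.68%), against 6.06% of all measured genes, and 3 of 31 were lower (9.68%), against 8.43%, so both counts were near the background. The median log2 difference was -0.05 for the members and -0.06 for all measured genes, with 11 members above 0 and 18 below.

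Among the MAP3K genes, Map3k8 read 105 with SEA/LPS, 152 with LPS, 26.8 with SEA and 34.7 in media. Both arrays with LPS were thus high, and those without it lay at or next to the floor. Among the 7695 genes above the floor on both the LPS and the media array, its log2 difference of 2.13 was the 118th highest. Map3k5 encodes ASK1, a MAP3K activated by oxidative stress, and it was at least 2.55-fold higher with LPS. Its signals were 39.2 with SEA/LPS, 84.9 with LPS, 7.10 with SEA and 30.6 in media, so the LPS array alone stood clear of the floor. Map3k11 encodes MLK3, a MAP3K of the JNK branch, and went the other way, at least 2.76-fold lower with LPS. It read 88.4 with SEA/LPS, 6.60 with LPS, 105 with SEA and 92 in media. A single array was low there. Map3k8, Map3k5 and Map3k11 each rest on 1 probe set, and so do Map4k1 and Map2k1.

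The 9 other measured MAP3K genes lay within 2-fold, between -0.54 and 0.51 log2. Map3k7, which encodes TAK1, had a difference of -0.02 log2, with signals of 127 with SEA/LPS, 122 with LPS, 88.2 with SEA and 123 in media. Its other probe sets above the floor read -0.76, 0.30 and, as a bound, -0.99, so the value rests on the probe set chosen. Map3k14, which encodes NIK of the alternative NF-kappaB pathway, read 129 with SEA/LPS, 157 with LPS, 163 with SEA and 177.5 in media. Map3k1, which encodes MEKK1, had a difference of -0.36 log2, and Map3k3, encoding MEKK3, also -0.36. Map3k12, which encodes DLK, had 0.51 and Map3k6 -0.54. Map3k2 (0.11), Map3k20 (at least 1.16-fold higher) and Map3k4 (at the floor on both arrays) had signals of 40.1 or less on every array.

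In the MAP4K tier, Map4k1 gave the widest difference of the family. It read 33.5 with SEA/LPS, 32.3 with LPS, 309 with SEA and 263 in media, so both arrays with LPS lay at or next to the floor and both without it were well above. With SEA/LPS the signal was 7.86-fold lower than in media, and this was the lowest difference among the 7546 genes above the floor on both of those arrays. Since 33.5 is just above the floor, the size of that difference is close to the widest that the floor allows for this gene. Fewer cells that express the gene and less RNA per cell cannot be told apart in a bulk sample. Lymphocytes also express Map4k1. The summed signal of 5 B cell markers was 188 with SEA/LPS, 201 with LPS, 261 with SEA and 217 in media. Cd79b and Pax5 were at the floor on all arrays. Cd79a was at the floor on both arrays with LPS and read 33.9 with SEA and 43.3 in media. Cd22 read 95.4 with SEA/LPS, 83.5 with LPS, 142 with SEA and 115 in media. Both were thus lower with LPS, as Map4k1 was. Ms4a1 went the other way, with 54.9 with LPS, 38.6 with SEA and 39.6 in media. The summed signal of 6 T cell markers was 96.1 with SEA/LPS, 164 with LPS, 123 with SEA and 105 in media, with Cd3e, Cd3d, Cd3g and Cd4 at the floor on all arrays. Cd8a was highest with LPS (61.7), and Cd28 was at the floor with SEA/LPS alone. The part of these markers, and of RNA integrity and control brightness, in the result was not tested. The remaining MAP4K genes differed little: Map4k4 read 140.4 with SEA/LPS, 139 with LPS, 122.5 with SEA and 124.5 in media, and Map4k5 lay between 35.7 and 46.1 on all arrays.

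In the MAP2K tier, Map2k1 read 1989 with SEA/LPS, 2905 with LPS, 977 with SEA and 1009.6 in media. SEA and media were alike, LPS was highest, and SEA/LPS lay between. Its LPS over media difference of 1.52 log2 was the 224th highest among the 7695 genes ranked. The partner kinase MEK2, encoded by Map2k2, had a difference of -0.54 log2 on the probe set used (237 with LPS and 345 in media) and 0.11 on its other one. Map2k5 read 129 with SEA/LPS, 74.9 with LPS, 145 with SEA and 186 in media, lowest on the LPS array. The kinases above p38, Map2k3 (875 with LPS and 945 in media, -0.11 log2) and Map2k6 (at the floor with LPS, 40.5 in media), were within 2-fold. So was Map2k4, whose product acts mainly on JNK, at 0.08 log2 (292 with LPS and 275 in media).

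Promoter sequence was compared for the members with the highest and the lowest measured differences for which RefSeq windows were used here. These are Map2k1 and Map4k1, and each is shown as the 250 bases before an annotated start in build GRCm38.p6, 5' to 3' on the strand of the gene. Capitals mark every match, on either strand, to the kappaB consensus bound by NF-kappaB, to the AP-1 site TGANTCA bound by Fos and Jun proteins, or to the GC box GGGCGG. The Map2k1 window lies at chr9:64253606-64253855 on the minus strand, and the Map4k1 windows at chr7:28981800-28982049 and chr7:28982604-28982853 on the plus strand.
Map2k1: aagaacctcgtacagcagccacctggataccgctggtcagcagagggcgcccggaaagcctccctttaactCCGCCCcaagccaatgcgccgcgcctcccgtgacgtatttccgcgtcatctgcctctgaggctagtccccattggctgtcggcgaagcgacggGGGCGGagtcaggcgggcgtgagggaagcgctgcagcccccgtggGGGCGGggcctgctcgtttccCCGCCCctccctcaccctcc
Map4k1, upstream start: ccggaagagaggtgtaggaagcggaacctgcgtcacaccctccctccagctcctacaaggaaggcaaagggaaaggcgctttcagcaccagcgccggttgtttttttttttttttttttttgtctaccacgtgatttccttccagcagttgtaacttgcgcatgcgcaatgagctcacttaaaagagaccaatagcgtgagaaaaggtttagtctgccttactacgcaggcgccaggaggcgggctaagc
Map4k1, downstream start: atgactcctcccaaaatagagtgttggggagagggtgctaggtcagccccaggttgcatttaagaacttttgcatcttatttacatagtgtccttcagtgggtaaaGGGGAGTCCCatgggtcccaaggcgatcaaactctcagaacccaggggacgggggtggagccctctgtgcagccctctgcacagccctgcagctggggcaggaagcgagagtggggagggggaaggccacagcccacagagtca

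The Map2k1 window held 4 GC boxes and no match to the other motifs. The downstream Map4k1 window held 1 kappaB match, which reads on both strands and ends 134 bases before the start, and the upstream window held none of the motifs. Of the 31 measured members, 28 had 39 windows in RefSeq, and Map4k4, Map3k2 and Map3k8 had none used here. A kappaB match was present in 4 of the 39 windows (10.3%), in Map4k1, Map3k7 and Mapk7, against 7.25% of all 32851 windows. An AP-1 match was present in 1 window (2.56%), in Map2k6, against 6.75%. A GC box was present in 22 windows (56.4%) of 19 members, against 32.7% of all windows. All windows came from 27025 RefSeq genes, whether measured here or not, unlike the background of measured genes used elsewhere. A difference from these shares is therefore not read as a trait of the members. No overlap between motifs occurred in the windows shown, and a match is only a description of the letters.

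Among the MAP kinases themselves, none passed 2-fold with LPS over media. The closest was Mapk14, which encodes p38 alpha, the main p38 kinase of myeloid cells, at -0.98 log2. It read 377 with SEA/LPS, 248 with LPS, 550.0 with SEA and 490.4 in media, lowest on the LPS array. Of its other probe sets, a pair read -1.09 and -0.95 log2 with LPS over media, while a dim one, with 50.3 with LPS and 9.60 in media, gave only a lower bound of 0.60 log2. Mapk6, which encodes the atypical kinase ERK3, was 0.83 log2 higher, with 310.4 with SEA/LPS, 295 with LPS, 176 with SEA and 165 in media. Here both arrays with LPS lay above both without it, at less than 2-fold.

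The JNK genes stayed within 2-fold in all 4 comparisons. Mapk8, encoding JNK1, read 138 with SEA/LPS, 143 with LPS, 116 with SEA and 128 in media. Mapk9, encoding JNK2, read 338 with SEA/LPS, 276 with LPS, 330.3 with SEA and 282 in media. Mapk10, whose product JNK3 is mainly found in neurons, did not exceed 33.4 on any array. Of the other p38 genes, Mapk12 was at the floor on both arrays with LPS and read 36.3 with SEA and 48.4 in media, and Mapk11 and Mapk13 were not measured. Mapkapk2, which encodes MK2, a p38 substrate that prolongs the life of cytokine mRNAs, read 887 with SEA/LPS, 1057.5 with LPS, 562 with SEA and 788 in media. Mapkapk5 read 186 with SEA/LPS, 139.7 with LPS, 142 with SEA and 199 in media.

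**Figure D2:**
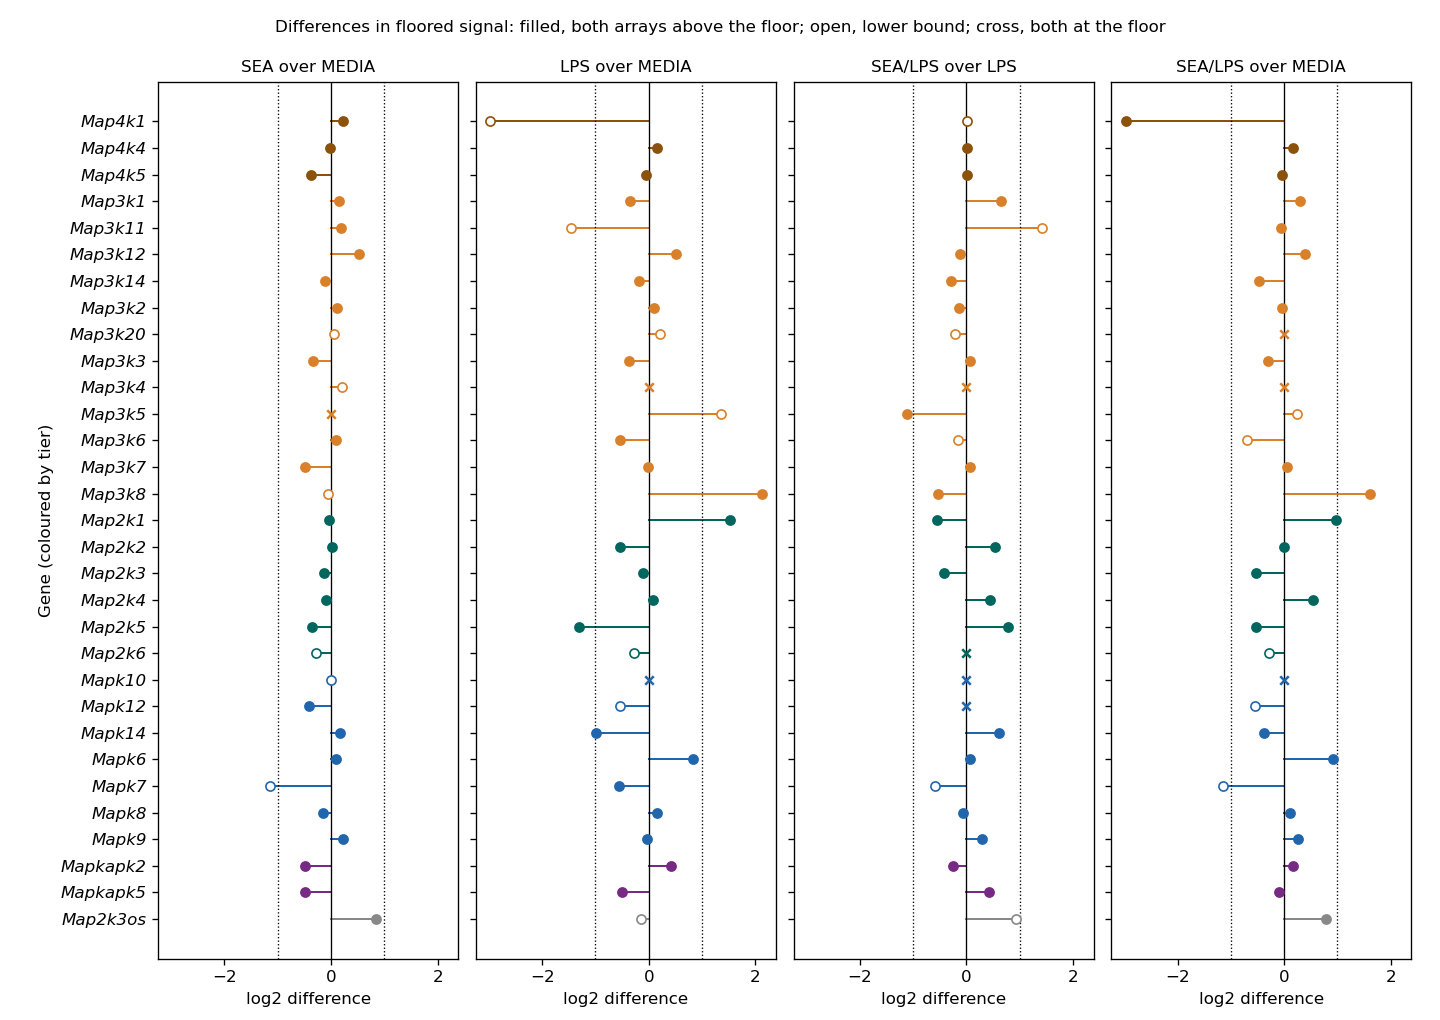
Log2 difference of each measured gene (rows, coloured by tier) in 4 panels, which compare SEA with MEDIA, LPS with MEDIA, SEA/LPS with LPS and SEA/LPS with MEDIA, from 1 array per group, with dotted lines at 2-fold. Filled points have both arrays above the floor, open points are lower bounds and crosses have both arrays at the floor; Map4k1 reaches -2.98 as a bound with LPS and -2.97 with SEA/LPS, and Map3k8 2.13 and 1.60.

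The calls of LPS over media depended in part on scaling. Scaled to the hybridisation controls, 1 member was higher and 7 lower, in place of 3 and 3, while the median of all measured genes moved by -0.50 log2 and their counts were 284 higher and 2431 lower, in place of 574 and 799 (75th percentile scaling gave 724 and 581); Map3k8 stayed higher (1.58) and Map2k1 read 0.97 and Map3k5 0.92. With a floor at the median of all signals, Map3k11 read -0.87 and Map3k5 0.76, and with the mean of its probe sets Map2k5 read -0.68, all within 2-fold. The probe sets of Map2k5 read -1.31, at least 1.90-fold lower and 0.19 log2, in order of brightness on the media array. Probe sets of a gene disagreed elsewhere too. For LPS over media, those of Map4k4 read 0.15, 0.55 and -0.70, and those of Map3k3 -0.36, -0.25 and -0.97. For SEA/LPS over media the other probe set of Map3k14 read -1.12 against -0.46 for the one used, and 1 dim probe set of Map3k7 read 1.06 against 0.05.

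**Figure D3:**
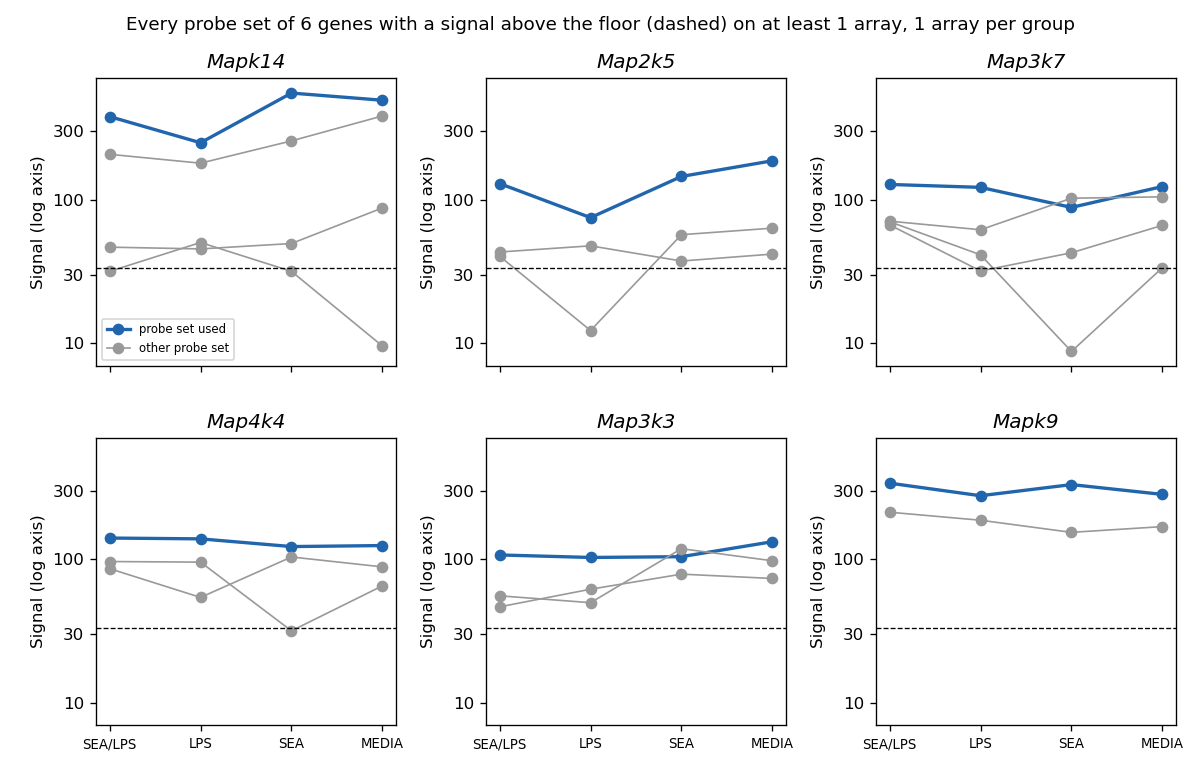
Deposited signal (log axis) of every probe set above the floor on at least 1 array for Mapk14, Map2k5, Map3k7, Map4k4, Map3k3 and Mapk9, across SEA/LPS, LPS, SEA and MEDIA (1 array each, genes chosen after their values were seen). Blue lines are the probe sets used and grey lines the others; for Mapk14, 3 of 4 lines are lower with LPS than in media, while lines of Map4k4 and of Map3k3 cross.

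SEA over media, which asks what SEA does alone, gave a single call. Mapk7, which encodes ERK5, was at least 2.22-fold lower with SEA. Its signals were 10.2 with SEA/LPS, 50.1 with LPS, 30.8 with SEA and 73.9 in media, so both arrays with SEA were at the floor and both without it above. Of 31 members 0 were higher, against 0.644% of all measured genes, and 1 was lower (3.23%), against 0.633%. The median difference was -0.02 for the members and 0 for all genes, and its median size regardless of sign was 0.17 log2 for the members and 0.19 for all genes. Mapk7 rests on 1 dim probe set, and with a floor at the median of all signals its difference was -0.55.

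Below 2-fold and on the probe sets used, the kinases with the largest differences under SEA were Map3k12 at 0.53 log2 (85.2 with SEA and 59.1 in media), Mapkapk2 at -0.49 (562 and 788), Mapkapk5 at -0.48 (142 and 199) and Map3k7 at -0.48 (88.2 and 123). Other probe sets of Map3k7 read -0.63 and -0.03, and 1 more was at the floor with SEA and next to it in media. Other probe sets of Mapk14 read -0.58 and -0.82, against 0.17 for the one used, and its dim one was at the floor on both arrays. For Map4k4, other probe sets above the floor read 0.23 and, as a bound, -0.97, against -0.02 for the one used. Of the members called under LPS, Map2k1 had -0.05 log2 under SEA alone, Map4k1 0.23, Map3k11 0.19 and Map2k5 -0.36, while Map3k8 was at the floor with SEA and Map3k5 at the floor on both arrays. Map2k3os, the transcript opposite Map2k3, read 63.4 with SEA/LPS, 31.3 with LPS, 65.6 with SEA and 36.6 in media. The difference was 0.84 log2 for SEA over media and, as a bound, 0.93 for SEA/LPS over LPS, so both arrays with SEA lay above both without it. Map2k3 itself read 651 with SEA/LPS, 875 with LPS, 864 with SEA and 945 in media. Whether the probe sets of the locus are read from a single strand each was not tested.

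The effect of SEA in the presence of LPS was read from SEA/LPS over LPS. Map3k11 was at least 2.65-fold higher with SEA/LPS and Map3k5 was 2.17-fold lower (39.2 with SEA/LPS and 84.9 with LPS). Thus 1 of 31 members was higher (3.23%), against 1.39% of all measured genes, and 1 was lower (3.23%), against 3.47%. The median difference was 0 for the members and -0.01 for all genes. This comparison shares the LPS array with LPS over media, so a gene that read low or high on that array alone can appear in both. Both calls are of such genes: Map3k11 read low on the LPS array alone, and Map3k5 stood clear of the floor on it alone.

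Smaller differences of SEA/LPS over LPS were seen in several tiers. Map2k5 was 0.79 log2 higher (129 with SEA/LPS and 74.9 with LPS), Map3k1 0.65 (95.2 and 60.6), Mapk14 0.60 (377 and 248), Map2k2 0.54 (344 and 237), Map2k4 0.45 (399 and 292) and Mapkapk5 0.41 (186 and 139.7). On the lower side were Map2k1 at -0.55 (1989 and 2905), Map3k8 at -0.53 (105 and 152) and Map2k3 at -0.43 (651 and 875). Mapk7 was at the floor with SEA/LPS and at least 1.5-fold lower. Other probe sets often differed from these values. Those of Map2k5 read -0.14 and, as a bound, 0.28, and the mean of its probe sets gave 0.31. Those of Mapk14 read 0.20, 0.04 and, as a bound, -0.60. The other probe set of Map2k4 read -0.45, that of Map2k2 -0.08 and that of Map2k3 -0.79. Scaled to the 75th percentile, 2 members were higher and 1 lower, under quantile normalization 2 and 0, and with the hybridisation controls 2 and 0; Map3k5 read -0.96 under quantile normalization. All measured genes had 193 higher and 292 lower, 198 and 259, and 299 and 134 under those 3 scalings, in place of 132 and 329.

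SEA/LPS over media gives the joint effect. Map3k8 was 3.04-fold higher and Map4k1 7.86-fold lower, and Mapk7 at least 2.22-fold lower. Hence 1 of 31 members was higher (3.23%), against 4.54% of all measured genes, and 2 were lower (6.45%), against 7.05%. Map2k1 at 0.98 log2 and Mapk6 at 0.91 lay just under 2-fold. The median difference was 0 for the members and -0.12 for all genes. Scaled to the 75th percentile 3 members were higher and 2 lower, the added ones being Map2k1 and Mapk6, under quantile normalization 2 and 2, and with the hybridisation controls 1 and 2. All measured genes had 608 higher and 423 lower, 509 and 469, and 288 and 1462 under those 3 scalings, in place of 430 and 668.

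**Figure D4:**
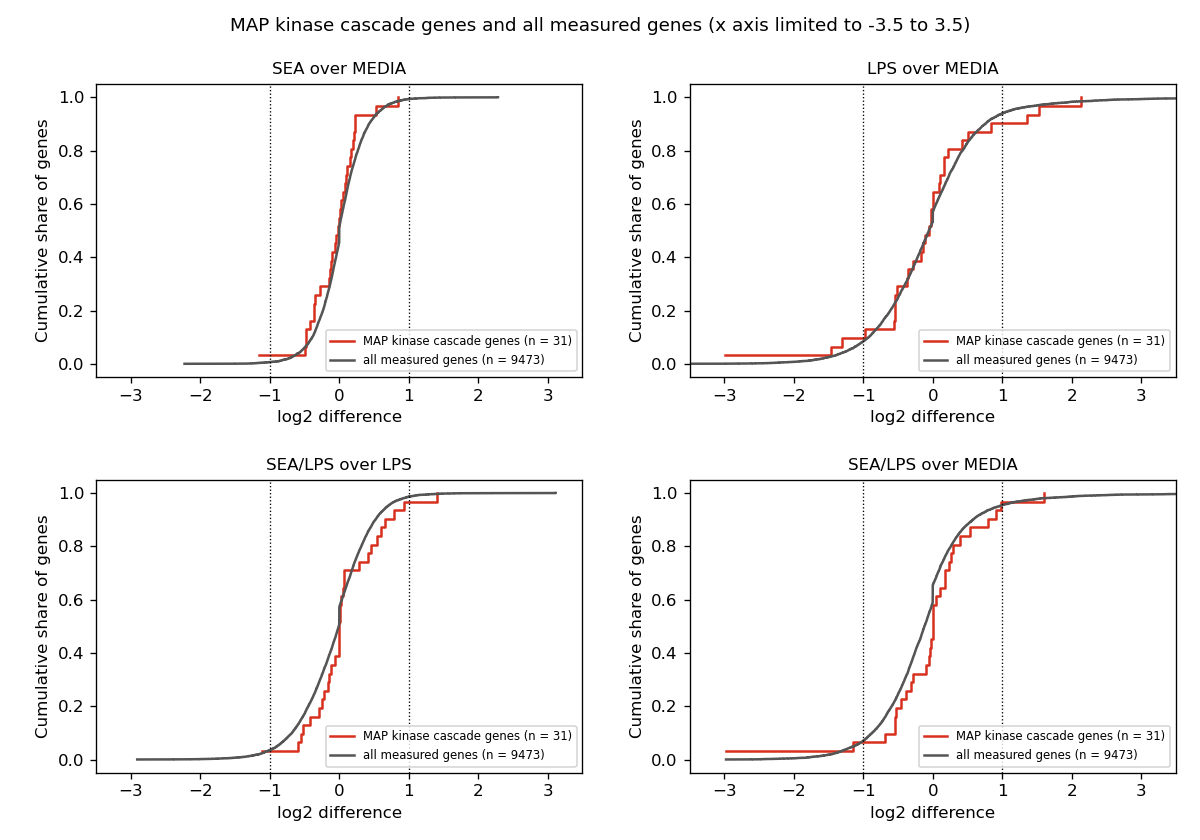
Cumulative share of genes (y axis) by log2 difference (x axis) for the 31 MAP kinase cascade genes in red and all 9473 measured genes in grey, in each comparison of 1 array per group, with dotted lines at 2-fold. The red and grey curves run close together in each comparison, with medians of -0.05 and -0.06 for LPS over MEDIA and of 0 and -0.12 for SEA/LPS over MEDIA.

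Other genes of the pathway were read from 6 lists, whose counts are set beside the shares over all measured genes; in lists this small 1 gene moves the share widely. For LPS over media these shares are 6.06% higher and 8.43% lower, and the median over all genes is -0.06. For SEA/LPS over media they are 4.54% and 7.05%, and the median is -0.12. The shares are 0.644% and 0.633% for SEA over media, and 1.39% and 3.47% for SEA/LPS over LPS. With shares that low, 0 calls in so small a list says nothing particular about the list. Of 8 measured MAP3K genes named otherwise and TAK1 partners, 1 was higher and 2 lower with LPS than in media, against 6.06% and 8.43% of all measured genes, and the list's median difference was -0.22 log2. Tab2, which links TAK1 to ubiquitin chains, read 881 with SEA/LPS, 909.5 with LPS, 524 with SEA and 429 in media (1.08 log2 for LPS over media). Tab1, another TAK1 partner, read 79.9 with SEA/LPS, 42.1 with LPS, 94.5 with SEA and 97.0 in media (-1.20). Araf, a RAF kinase of the ERK branch, read 68.6 with SEA/LPS, 66.0 with LPS, 98.4 with SEA and 138 in media (-1.06). With SEA/LPS over media, 1 was higher, Tab2 (1.04), and 2 were lower, Araf (-1.01) and Mink1 (-1.08). None of the 8 passed 2-fold with SEA over media or with SEA/LPS over LPS.

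Of 7 measured scaffolds and adaptors, 1 was higher and 2 lower with LPS than in media, against 6.06% and 8.43% of all measured genes, and the list's median difference was 0.01 log2. Arrb2, which encodes a beta-arrestin, read 410.2 with SEA/LPS, 243 with LPS, 659.5 with SEA and 778 in media (-1.68), and Arrb1 had -2.65. Mapk8ip2, a scaffold of the JNK branch, was at least 2.19-fold higher with LPS than in media and at the floor with SEA/LPS (a bound of -1.13 log2 over LPS). It read 19.4 with SEA/LPS, 72.9 with LPS, 36.2 with SEA and 16.0 in media, clear of the floor on the LPS array alone. Ksr1, a scaffold of the ERK branch, was 1.07 log2 higher with SEA/LPS than in media (97.1 and 46.3), and Arrb1 was lower there (-1.69). SEA over media gave 0 calls. Of 3 measured kinases that MAP kinases activate, 0 were higher and 2 lower with LPS than in media, against 6.06% and 8.43% of all measured genes, and the list's median difference was -1.58 log2. Both phosphorylate the translation factor eIF4E: Mknk2 read 257 with SEA/LPS, 220.0 with LPS, 903 with SEA and 769 in media (-1.81), and Mknk1 read 169.8 with SEA/LPS, 105 with LPS, 343 with SEA and 314 in media (-1.58). Mknk2 was also lower with SEA/LPS than in media (-1.58), and the other comparisons gave 0 calls. The third, Rps6ka3, had 428 with SEA/LPS, 334 with LPS, 532.5 with SEA and 579 in media, within 2-fold.

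The MAP kinase phosphatases, which switch the kinases off, had 6 measured members. With LPS over media 1 was higher, Dusp2 (1.12), and 1 lower, Dusp7 (at least 2.34-fold), against 6.06% and 8.43% of all measured genes, and the median was 0.40 log2. Dusp1 (1.54) and Dusp16 (1.09) were higher with SEA/LPS than in media, and Dusp6 (-1.61) and Dusp7 lower (at least 2.34-fold). Dusp2 was lower with SEA/LPS than with LPS (-1.36), and SEA over media gave 0 calls. The signal of Dusp2 was 56.5 with SEA/LPS, 145 with LPS, 43.1 with SEA and 66.8 in media, high on the LPS array alone. Of 19 measured transcription factor substrates 1 was higher and 3 lower with LPS than in media, against 6.06% and 8.43% of all measured genes, and the list's median difference was -0.28 log2. Fosb was at least 2.12-fold higher, while Jun (-2.08), Myc (at least 5.71-fold) and Ddit3 (at least 2.98-fold) were lower. For SEA/LPS over media Jun (-1.12) and Myc (at least 5.71-fold) were the 2 lower and 0 were higher. With SEA/LPS over LPS 1 was lower, Elk1 at -1.31, and with SEA over media 0 were called. Elk1, an ERK substrate, read 35.4 with SEA/LPS, 88.0 with LPS, 40.9 with SEA and 44.1 in media, high on the LPS array alone.

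Of 10 measured genes of the input from Toll-like receptors, 2 were higher and 1 lower with LPS than in media, against 6.06% and 8.43% of all measured genes, and the list's median difference was 0.31 log2. Cd14, the LPS co-receptor, had 1.79 log2 and Ikbkb, which encodes the IKK beta kinase, 1.06. Ikbkg, which encodes the IKK regulatory subunit NEMO, had -1.27, with 246 with SEA/LPS, 99.9 with LPS, 321 with SEA and 241 in media, and was 1.30 log2 higher with SEA/LPS than with LPS. Its signal was low on the LPS array alone, which both of these comparisons share. Over media, SEA/LPS had 2 higher, Cd14 (1.53) and Tnip1 (1.23), and 0 lower. SEA over media gave 0 calls, with Cd14 just under 2-fold (3112 with SEA and 1559 in media). TPL2 is held in a complex with the protein of Tnip2, which read 102.5 with SEA/LPS, 119 with LPS, 111.5 with SEA and 116 in media. Tlr4 read 211 with SEA/LPS, 106 with LPS, 268 with SEA and 195 in media, within 2-fold in all 4 comparisons.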

How the data were processed

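Total RNA of 4 samples, 1 per group, was measured on Affymetrix arrays of 22690 probe sets. The deposited values are linear 1-colour intensities, judged from the values; their equal trimmed means show that the authors scaled them, which hides any difference in total RNA. The software, background step and scaling rule were not given in the sources used here.

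Probe sets were named through the platform annotation (20380 with 1 symbol, 691 with several, 1555 with none, 64 controls), and 20351 were matched by Entrez identifier to GRCm38.p6 for current symbols. The 40th percentile of all values, 33.3, served as a floor to which dimmer signals were raised, log2 was taken, and the probe set with the highest mean stood for its gene. Where 1 array of a pair is at the floor the difference is only a bound. Differences of at least 2-fold were counted if the larger signal exceeded the floor, with no test. The code was run on simulated data with changes planted in genes well above the floor. That run held no bounds, disagreeing probe sets or other differences between arrays, so it says nothing about calls that rest on these. Named genes are all members, with all 4 signals for those at 2-fold and the brightest of each tier, and members of 6 pathway lists at 2-fold; other values were chosen after they were seen, and signals of different probe sets were not compared. Markers of 8 cell types were read. The members and lists were chosen with earlier results of these data known. Promoter windows are from RefSeq (GRCm38.p6). Alternatives were 3 other scalings, 2 other floors and 2 other probe set choices. Python 3.11.15, pandas 2.3.3, NumPy 2.4.6 and matplotlib 3.10.9 were used.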

Additional observations from a re-analysis of the deposited data

How the results depend on the processing

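Of the 12 single calls of members, 4 held under every setting that measured them (Map4k1 and Map3k8, each with LPS and with SEA/LPS over media), 8 were lost under at least 1 of the 7 settings, and 0 turned in direction. With SEA over media the count of lower members was 2 with the floor at the 20th percentile, 0 with the floor at the median and 0 without suffixed probe sets, in place of 1. With LPS over media, scaling to the hybridisation controls gave 1 higher and 7 lower members, in place of 3 and 3. With SEA/LPS over LPS the count of higher members, 1 as deposited, was 2 under each of the 3 other scalings and the 20th percentile floor, and 0 with the floor at the median; the count of lower members, 1 as deposited, was 0 under quantile normalization, the hybridisation controls and the median floor, and 3 with the floor at the 20th percentile. With SEA/LPS over media the count of higher members, 1 as deposited, was 3 with 75th percentile scaling and 2 under quantile normalization, and the count of lower members, 2 as deposited, was 1 with the floor at the median and 0 without suffixed probe sets. Leaving out suffixed probe sets leaves 23 measured members and removes the only probe sets of Map4k1 and Mapk7, which is why those counts fell; the cause of the other moves was not tested. The median of all measured genes moved by over 0.1 log2 under the hybridisation controls (-0.50 for LPS over media, 0.11 for SEA/LPS over LPS and -0.30 for SEA/LPS over media) and, for SEA/LPS over media, at the 75th percentile (0.12) and under quantile normalization (0.11). For the 12 of 31 members at the floor on at least 1 array, differences against such an array are bounds. No paired analysis was possible because each group had 1 sample.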
